A study of Rattus norvegicus with 2 samples.

Results

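The genes that encode the protein subunits of the cytosolic ribosome were compared between the sexes in the nucleus of the solitary tract (NTS), the brainstem centre that receives signals from the heart, vessels and viscera. Both groups were spontaneously hypertensive rats (SHR), an inbred strain whose blood pressure rises with age, and all were 9 weeks old. One group was male and the other female, with no treatment other than free access to food and water named for either. Each pool combined 100 ng of RNA per animal from 5 rats and was read on 1 Agilent 1-colour array, so the comparison is of 2 arrays. A pool hides the spread between its animals, and no p-value can be given for any difference below. The members were the protein-coding genes whose RefSeq symbol begins with Rpl or Rps and a number or P number, together with Rpsa. S6 kinase genes (Rps6k) and pseudogenes were left out. This gave 91 of 16581 named genes: 76 core genes, 31 of the small and 45 of the large subunit, and 15 paralogues, whose names carry an l after the number and which are described apart.

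A ribosome reads mRNA on its small subunit and joins amino acids on its large subunit, and each subunit holds many proteins, most of them in a single copy. Cells therefore need these proteins in matched amounts, and their genes are among the most heavily transcribed in the body. In vertebrates their mRNAs begin with a C followed by a run of pyrimidines, the terminal oligopyrimidine or TOP motif, through which the mTOR kinase and the RNA-binding protein LARP1 adjust translation. Neurons depend on this machinery in the soma and in dendrites.

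Start regions are shown first because the TOP motif is a known shared feature of this family that was not used to choose the members. RefSeq promoters of assembly GRCr8 matched 62 of the 76 core genes. The letters CTTT, read on the gene's strand within 10 bases to either side of the annotated start, were found in 30 of 62 promoters, or 48.4%, against 7.69% of all 33469 promoters in the table. The share was 44% of 25 for the small and 51.4% of 37 for the large subunit. The same window on the other strand (AAAG) gave 1.61% of core genes and 7.91% of all promoters. The longer CTTTC, which contains CTTT, was in 30.6% against 2.22%. Below are 12 windows of 30 bases, 10 before the start and 20 from it, chosen after the sequences had been read. The first 8 show CTTT at or near the start, in genes of both subunits, with the first such stretch in capitals. In Rps27 its C lies 8 bases before the annotated start, and a further CTTT right after the start is in lower case. The last 4 have none within 10 bases of the start and belong to genes on which the differences below turn: Rps28 and Rpl36, the lowest in the female pool, and the X-linked Rpl36a and Rpl39.
Rpl28 (chr1:78083513-78083542, minus strand): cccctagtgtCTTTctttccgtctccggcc
Rpl19 (chr10:83519054-83519083, plus strand): ccagcaagctCTTTcctttcgctgctgcgt
Rpl35a (chr11:81235002-81235031, minus strand): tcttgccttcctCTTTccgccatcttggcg
Rpl9 (chr14:43247580-43247609, plus strand): aggacgttctctCTTTgccccatctactgc
Rpl10 (chrX:157205840-157205869, plus strand): gtgggagcgtctCTTTtcctctggcgcggt
Rps27 (chr2:177964587-177964616, minus strand): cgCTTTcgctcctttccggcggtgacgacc
Rps7 (chr6:50999426-50999455, minus strand): agagctgtgtctCTTTctaagccggcactc
Rps26 (chr7:1643385-1643414, minus strand): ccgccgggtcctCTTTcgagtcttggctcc
Rps28 (chr7:15311314-15311343, minus strand): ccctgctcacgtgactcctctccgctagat
Rpl36 (chr9:1533770-1533799, plus strand): cggccgccatcggaaagctgcaggtaagtc
Rpl36a (chrX:102059439-102059468, plus strand): tataaacttccgttgctgctctagcctctc
Rpl39 (chrX:121195877-121195906, minus strand): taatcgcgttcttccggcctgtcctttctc

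An annotated start can lie some bases from the true one, so a window without these letters says only that they are not in it. The mitochondrial ribosomal protein genes, whose products are imported into mitochondria, carried CTTT in 4 of 65 windows, or 6.15%. Genes of translation elongation and other known TOP mRNAs carried it in 5 of 15, or 33.3%, and the paralogues in 1 of 12. The core of the ETS factor motif, CTTCCG or its other strand CGGAAG, lay within the 100 bases before the start in 35.5% of core genes and 8.37% of all promoters. The share was 52% for the small and 24.3% for the large subunit, and 10.5% over all protein-coding genes. It was 27.7% for the mitochondrial ribosomal protein genes, 26.7% for the elongation and TOP genes and 16.7% for the paralogues, so this motif was not particular to the core genes. TATAAA, the TATA box, lay in the same 100 bases in 6.45% of core genes and 3.86% of all promoters. The core genes with CTTT within 10 bases of the start numbered 30. Their median female minus male difference was -0.020 on the log2 scale (SD over genes 0.028). The 32 without it also had a median of -0.020 (SD 0.033). CTTT is only 1 form of a C followed by pyrimidines, and the Rpl39 window has a C and further pyrimidines from the annotated start. The 2 groups are thus not TOP genes and genes without a TOP motif.

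Over the arrays as a whole, 80.1% and 82.3% of 58717 spots were well above background in the male and female pool, and none was saturated. The Y-linked Eif2s3y gave a scaled signal of 22.4 for males and was not well above background for females. Scaled signal is the processed intensity multiplied so that each array's 75th percentile equals 100. Of 13 listed markers of the dorsal medulla and NTS, 10 were measured on both arrays, among them Dbh at 399 and 381, Th at 602 and 532 and Slc17a6 at 370 and 402 (male, then female). Their median difference was 0.052 on the log2 scale, with 7 higher in the female and 3 in the male pool. Gcg, at 43.9 and 30.3 (-0.53), was the 1 marker past 1.2-fold, where 11.8% of all measured genes were. Tlx3 and Hoxa5 had no named probe. The tissue of the 2 pools differed in other markers: 12 of 12 measured choroid plexus genes were past 1.5-fold higher in the female pool, with a median difference of 2.33 on the log2 scale. Their summed scaled signals were 787 (male) and 9816 (female), or 170 and 490.4 for the 11 genes other than Ttr, which encodes the thyroxine carrier of cerebrospinal fluid. All 5 measured red cell genes were past 1.5-fold higher in the male pool (481 and 289). Of all 13428 measured genes, 201 were past 1.5-fold higher in the female and 107 in the male pool. All 10 oligodendrocyte genes were higher in the male pool (2245 and 1890), as were 5976 of all measured genes. Of the 10 oligodendrocyte genes, 2 were past 1.2-fold and 0 past 1.5-fold. Also higher in the male pool were 5 of 5 endothelial, 7 of 8 neuronal, 5 of 7 astrocyte and 6 of 7 microglial genes. Of 7 meningeal and fibroblast genes, 1 was higher there. Markers counted as measured had to be well above background on both arrays, and 12 of the 13 choroid plexus genes on the array passed. The part of these cell types in the ribosomal values was not tested, and in pooled tissue fewer cells of a type and less RNA per cell cannot be told apart.

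The core ribosomal protein genes were close to equal in the 2 pools. All 76 were well above background on both arrays, and none was past 1.2-fold or 1.5-fold in either direction, where 11.8% and 2.29% of all 13428 measured genes were. Bright genes differ less between arrays, and 75 of the 76 lay in the brightest 25% of measured genes, where 2.0% were past 1.2-fold and 0.417% past 1.5-fold. The core median was -0.017 on the log2 scale (SD over genes 0.032), with 24 genes higher in the female and 52 in the male pool. Over all measured genes 7452 were higher in the female and 5976 in the male pool, and over the brightest 25% 1582 and 1775. Of the 76 genes, 73 were within 1.05-fold, as were 5946 of all 13428 genes and 2164 of the 3357 brightest. The SD over all measured genes was 0.23 and over the brightest 25% was 0.13, which is 7.27 and 3.93 times the core SD. Those 2 SDs include extreme genes, such as Ttr at 3.92. The interquartile ranges lay closer together, at 0.041 for the core genes, 0.165 for all genes and 0.10 for the brightest 25%. The core genes average 186 probes, and the effect of this averaging on their spread was not tested. The direction of the family as a whole follows the scaling. Against the array median the split was 6 higher in the female and 70 in the male pool, after quantile normalization 41 and 35, after loess 36 and 40, and against spike-in controls 75 and 1. Against the 75th percentile with each probe's repeated spots counted once, it was 11 and 65, and in the brightest probe of each gene 31 and 45. With normexp correction, and also with no background correction, it was 32 and 44. The splits in these settings were counted for core genes only. In none of these settings was a core gene past 1.2-fold.

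**Figure D1:**
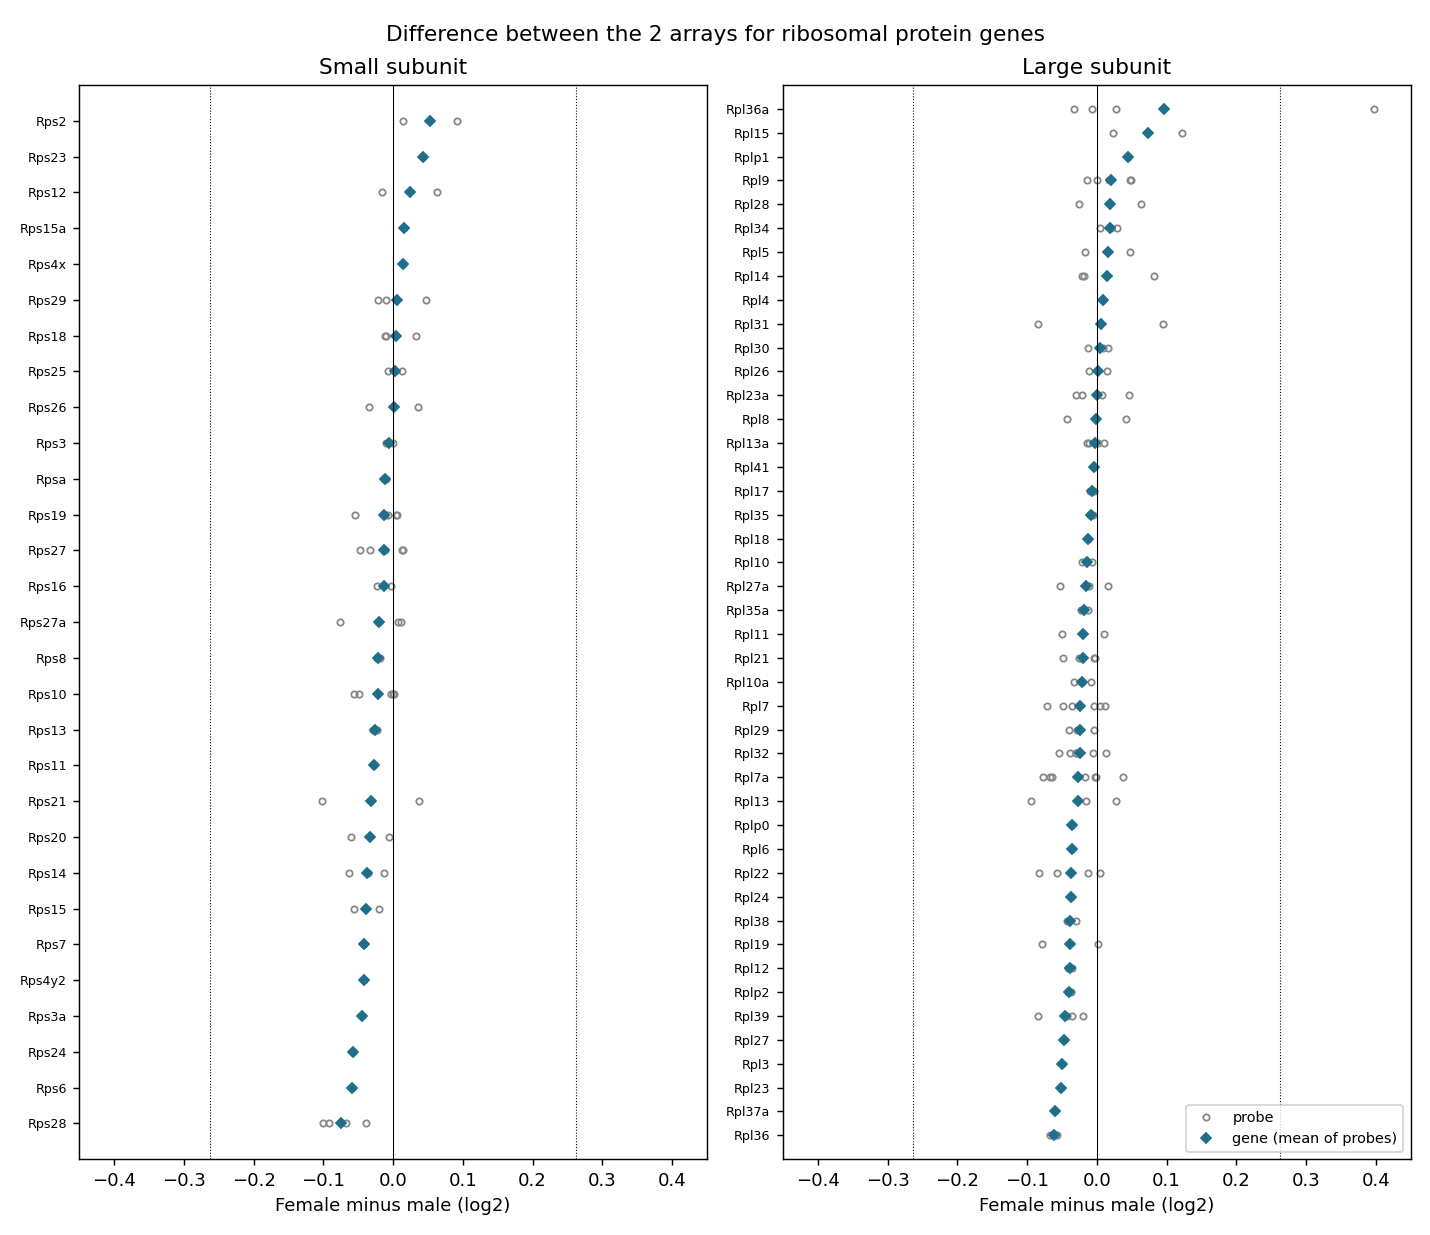
Female minus male difference (log2) of 29 small subunit and 44 large subunit genes, ordered by value. Open circles are single probes, diamonds are genes (the mean of their probes) and dotted lines mark 1.2-fold. All diamonds lie between -0.075 (Rps28) and 0.096 (Rpl36a), and 1 probe, of Rpl36a, lies outside the dotted lines.

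The subunits had like medians and ranges that overlapped. The median was -0.013 over the 31 small subunit genes (SD 0.029, range -0.075 to 0.053, 10 higher in the female pool) and -0.018 over the 45 large subunit genes (SD 0.034, range -0.062 to 0.096, 14 higher in the female pool). Those medians were 0.0049 apart, and the difference was not tested. Within 1.05-fold were 30 of 31 and 43 of 45 genes.

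At the lower end stood genes of both subunits. Rps28, at the mRNA exit channel of the small subunit, had a scaled signal of 1659 in the male and 1575 in the female pool, a difference of -0.075. Its 4 probes ran from -0.10 to -0.039, all lower in the female pool. Rpl36, of the large subunit, was at 1146 and 1098, with all 3 probes between -0.067 and -0.058. In both genes every probe lay on the same side, and the steps were 1.05-fold and 1.04-fold. Each of these probes had 1 spot. The 2 genes were picked as the lowest means of these same probes, so the shared side is no separate support. Rpl37a, a zinc-binding protein of the large subunit, was at 3192 and 3063 (-0.059, 1 probe). Rps6, whose phosphorylation by S6 kinase is a common readout of mTOR activity, was at 845 and 811, a difference of -0.059 ± 0.037 (SD over 10 spots of 1 probe), and none of its 10 spots was higher in the female pool. Rps24, needed to process the rRNA of the small subunit, was at 674 and 648 (-0.057). Rpl23, at the face between the subunits, was at 2163 and 2088 (-0.051), Rpl3, beside the peptidyl transferase centre, at 1647 and 1592 (-0.049) and Rpl27 at 115 and 112 (-0.047). Each of these last 4 rests on 1 probe.

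At the upper end the largest value rested on a single dim probe. Rpl36a, which touches the transfer RNA leaving the ribosome, was at 168 in the male and 180 in the female pool, a difference of 0.096. Of its 4 probes, 3 lay at -0.033, -0.0065 and 0.028, and the other, at a scaled signal of 1.24 and 1.64, lay at 0.40. Without that probe Rpl36a was at -0.0041. The SD over core genes was 0.029 with Rpl36a left out, and the highest gene was then Rpl15. Rpl15, of the large subunit, was at 231 and 243 (0.073), from a probe of 1910 and 1942 (0.023) and a dimmer one of 27.9 and 30.4 (0.12). Rps2, at the mRNA entry of the small subunit, was at 475 and 492 (0.053), from probes at 0.014 and 0.091. Rplp1 was at 4127 and 4257 (0.045) and Rps23, of the decoding centre, at 1561 and 1607 (0.042), each from 1 spot of 1 probe. Rps12 was at 2707 and 2752 (0.024), from probes at 0.063 and -0.016. Rpl15 and Rps2 thus differed by 1.05-fold and 1.04-fold, much as at the lower end.

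Repeated spots gave the measuring error of the arrays. Among the 186 core probes, 64 probes of 43 genes had 8 to 10 spots, and the SD of the female minus male difference over the spots of a probe was 0.036 at the median (0.018 to 0.063), or 0.012 as a standard error. The SD over these 64 probes was 0.021. This error covers spots on 1 pair of arrays and leaves out animals, pools, dissection and labelling. In 18 probes the mean difference was larger than its own spot SD, which is wider than its standard error, and 17 of them were lower in the female pool. In 8 probes every spot was lower in the female pool: 2 of Rpl12, and 1 each of Rpl22, Rpl27, Rpl38, Rpl8, Rplp2 and Rps6. The lowest was the Rpl22 probe, at 312 and 295 (-0.082 ± 0.039, SD over 10 spots). A single probe, of Rpl9, was higher in the female pool in every spot, at 610 and 630 (0.047 ± 0.028, SD over 10 spots). The other Rpl9 probes with 10 spots lay between -0.014 and 0.017. Since a change of scaling shifts every probe by a common step, these directions hold for scaling to the 75th percentile. The array had 1326 measured probes with 8 or more spots, and the counts above were not made over them. The 17 and 8 probes are therefore not shown to be a trait of this family.

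**Figure D2:**
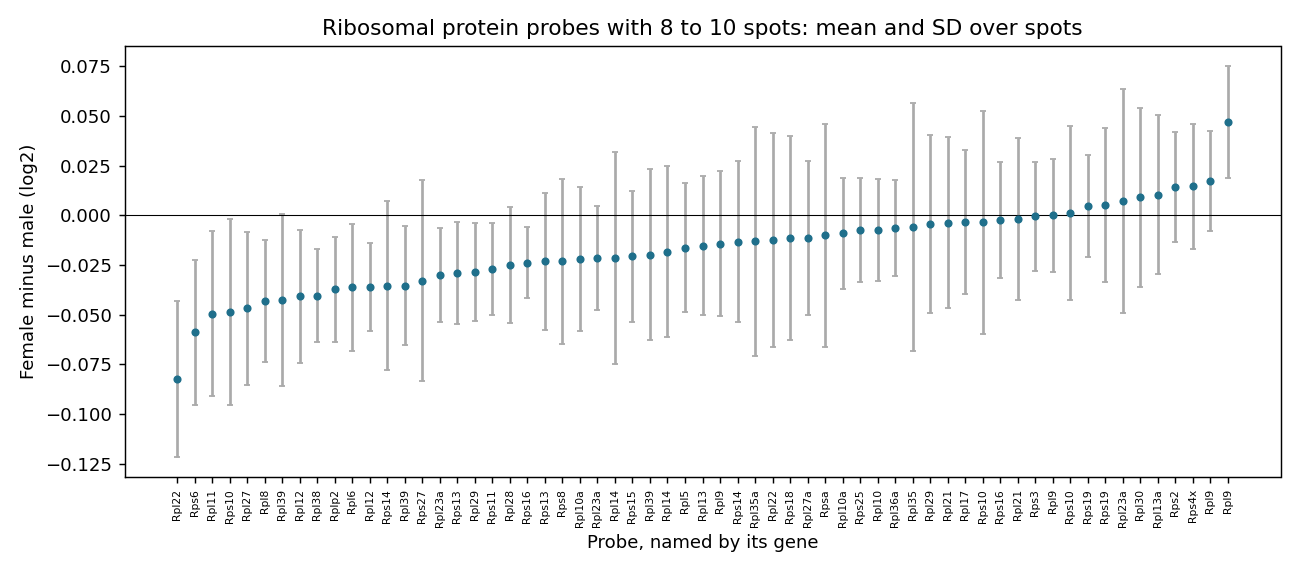
Female minus male difference (log2) of 61 core probes with 8 to 10 spots, ordered by value and named by gene. Points are means over spots and bars are 1 SD over spots to each side. The means run from -0.082 (Rpl22) to 0.047 (Rpl9), and 18 of the 61 bars do not reach 0.

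Probes of 1 gene also differed from each other. The 186 core probes had a median of -0.013 (SD 0.048), and 57 were higher in the female and 129 in the male pool. In the 54 genes with 2 or more probes, the SD over a gene's probes had a median of 0.027 and the range over them a median of 0.060. After Rpl36a (0.43) it was widest in Rpl31, at the rim of the exit tunnel, whose probes lay at -0.084 and 0.095. Rpl28 had a probe at 233 and 229 and another at 0.93 and 0.97, and their mean made it the 1 core gene outside the brightest 25%. Of the 29 genes with 3 or more probes, Rpl36, Rpl38, Rpl39, Rps14 and Rps28 had all probes below the median core probe, and Rpl30, Rpl34, Rps18 and Rps25 had all above it. The number to be expected by chance was not worked out, so these genes are not marked out as consistent. Brightness belongs to the probe as well as the gene, so levels are not set against each other between genes.

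The stalk of the large subunit, where elongation factors dock, has 3 members. Rplp0, the base of the stalk, was at 2790 and 2721 (-0.036) and Rplp2 at 1259 and 1225 (-0.039), while Rplp1, which pairs with Rplp2 on that base, was higher in the female pool (0.045). Rplp0 and Rplp1 each rest on 1 spot of 1 probe, and the 3 genes lay within 1.05-fold. Against spike-in controls all 3 were higher in the female pool, at 0.031, 0.11 and 0.027 for Rplp0, Rplp1 and Rplp2. Rpl5 and Rpl11, which join the ribosome with 5S rRNA and can bind Mdm2 when assembly fails, were at 787 and 795 (0.016) and at 779 and 769 (-0.019).

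Among the 8 genes of the exit tunnel and its rim the median was -0.0033, and all were within 1.05-fold. Rpl4, which reaches into the tunnel, was at 1311 and 1319 (0.0086), and Rpl17 at 695 and 692 (-0.0070). Rpl19 was at 1874 and 1825 (-0.038), and Rpl23a, where targeting factors bind, at 424.0 and 424.1 (0.00044). On the mRNA entry and decoding side, 4 of 5 listed genes were measured (Rps9 had no named probe) and their median was 0.018. Beside Rps2 and Rps23, Rps3 was at 981 and 978 (-0.0056) and Rps15 at 642 and 625 (-0.039). On the exit side and platform, the 6 measured genes had a median of -0.024. Rps14 was at 714 and 696 (-0.037), Rps26 at 1381 and 1382 (0.00086) and Rps3a at 1354 and 1313 (-0.044). The 9 genes listed for Diamond-Blackfan anaemia, an inherited failure of red cell production, had a median of -0.018 and all were within 1.05-fold. Rps19, the gene most often affected in that disease, was at 666 and 660 (-0.013) and Rps7 at 1171 and 1138 (-0.041).

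Of the core genes, 4 lie on the X chromosome in the RefSeq table and none on the Y. Rps4x was at 295 and 298 (0.015), Rpl10, which completes the large subunit, at 1038 and 1028 (-0.014), and Rpl39, which lines the exit tunnel, at 512 and 496 (-0.045). All 4 Rpl39 probes were lower in the female pool, from -0.084 to -0.020. With Rpl36a, 2 X-linked genes were higher and 2 lower in the female pool, and without the dim Rpl36a probe 1 was higher and 3 were lower. Rps4y2, named for a Y-linked relative but not placed on the Y in the table, was at 79.9 and 77.7 (-0.042).

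All 15 paralogues had at least 1 measured probe, and they had a median of -0.015, an SD of 0.25 and 11 of 15 higher in the male pool. Without Rpl39l1 the SD over the other 14 was 0.077. One, Rpl39l1, was past 1.2-fold and 1.5-fold, higher in the female pool, where 7.31% and 1.5% of all measured genes were past these folds in that direction. It was dim, at 1.09 in the male and 2.07 in the female pool, a 1.89-fold difference (0.92) from 1 spot of 1 probe. In the dimmest 25% of the signal range, where it lies, the median spot SD was 0.24 over 22 repeated probes, against 0.039 in the brightest 25%, and the SD over genes was 0.36. The difference was 0.27 with normexp correction and 0.45 without background correction, neither past 1.5-fold. Its core partner Rpl39 was at -0.045. Rpl3l, a form of Rpl3 known from heart and skeletal muscle, was also dim, at 1.04 and 1.19 (0.19).

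Of the other paralogues, Rpl27l2, Rpl27al1, Rpl22l1 and Rpl30l3 had the lowest differences. Rpl27al1 was at 631 and 582 (-0.12) where Rpl27a was at -0.016, and Rpl27l2 at 9.05 and 8.31 (-0.12) where Rpl27 was at -0.047. A further Rpl27l2 probe was above background in the female pool only. Rpl22l1 was at 94.1 and 88.4 (-0.089) from probes at 0.0056 and -0.18, where Rpl22 was at -0.037. Rpl30l3 was at 19.0 and 17.9 (-0.083) where Rpl30 was at 0.0044. Rps27l, a gene induced by p53, was at 127 and 125 (-0.028) and Rps27 at -0.013. Rpl37l1, whose synonym in the table is Rpl37, was at 794 and 766 (-0.053), and no probe was named Rpl37. Rpl36al1 was at 315 and 306 (-0.040). The other 6 (Rpl17l5, Rpl37al3, Rplp1l1, Rps19l3, Rps12l4 and Rpl39l5) lay between -0.015 and 0.018. The table also holds 895 pseudogene entries with ribosomal protein names, and how far a probe reads such copies was not tested, since the files give no probe sequences.

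**Figure D3:**
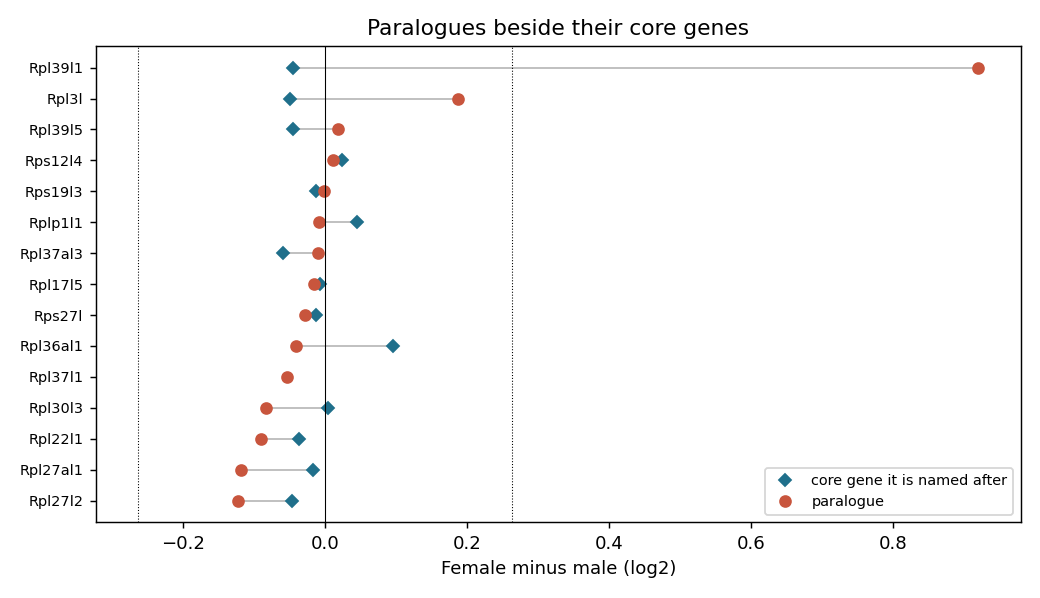
Female minus male difference (log2) of each of the 15 paralogues (circles) and of the core gene it is named after (diamonds, none for Rpl37l1), with dotted lines at 1.2-fold. One circle, Rpl39l1 at 0.92, lies outside the lines, and the other 14 lie between -0.12 and 0.19.

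Genes that work with the ribosome were read from fixed lists, whose counts past 1.2-fold stand beside 11.8% of all measured genes and 2.0% of the brightest 25%. The 3 measured ribosome components outside the naming rule had a median of -0.019, and all 3 were higher in the male pool. They ran from -0.079 to -0.0087, the highest being Fau at 1065 and 1058. The 18 genes of elongation and other TOP mRNAs had a median of -0.0097 and an SD of 0.032, the same SD as the core genes, and all 18 were within 1.05-fold. Pabpc1, the poly(A)-binding protein, was highest (467 and 486, 0.056) and the elongation factor gene Eef1g lowest (406 and 387, -0.069). Eef1a1, which delivers transfer RNA, was at 1600 and 1594 (-0.0053), and Tpt1 at 2128 and 2085 (-0.029). The 68 mitochondrial ribosomal protein genes had a median of -0.0065 and an SD of 0.066, with 49 within 1.05-fold and none past 1.2-fold. Mrpl15 was highest (21.3 and 23.9, 0.16) and Mrpl58 lowest (430 and 389, -0.15).

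Of 29 measured initiation factor genes (median 0.0017, SD 0.10), 1 was past 1.2-fold. This was the X-linked Eif2s3, a subunit of the factor that brings the initiator transfer RNA, at 13.3 and 18.7 (0.50), with probes at 0.48 and 0.51. Eif2b4 was lowest (-0.091), and the bright Eif4h (0.0074) and Eif1 (0.025) were within 1.05-fold. Among 39 ribosome biogenesis genes (median 0.012, SD 0.082), none was past 1.2-fold. Polr1b, of the polymerase that makes rRNA, was highest (4.25 and 5.06, 0.25) and Rrs1 lowest (-0.16), while Npm1 was at -0.0047 and Nolc1 at 0.012. Of 14 measured regulators of TOP mRNA translation (median 0.022, SD 0.074), Mtor was at 7.80 and 8.60 (0.14), its inhibitor Akt1s1 at -0.10, its activator Rheb at -0.043 and its partner Rptor at -0.041. In the p53 list, which responds when ribosome assembly fails, 11 of 12 genes were measured (median 0.0067, SD 0.10) and none was past 1.2-fold. Cdkn1a, an inhibitor of the cell cycle, was at 0.15 from probes at -0.17 and 0.47. Sesn2 was at -0.17, Ccng1 at 0.13 and Bax at 0.0030.

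**Figure D4:**
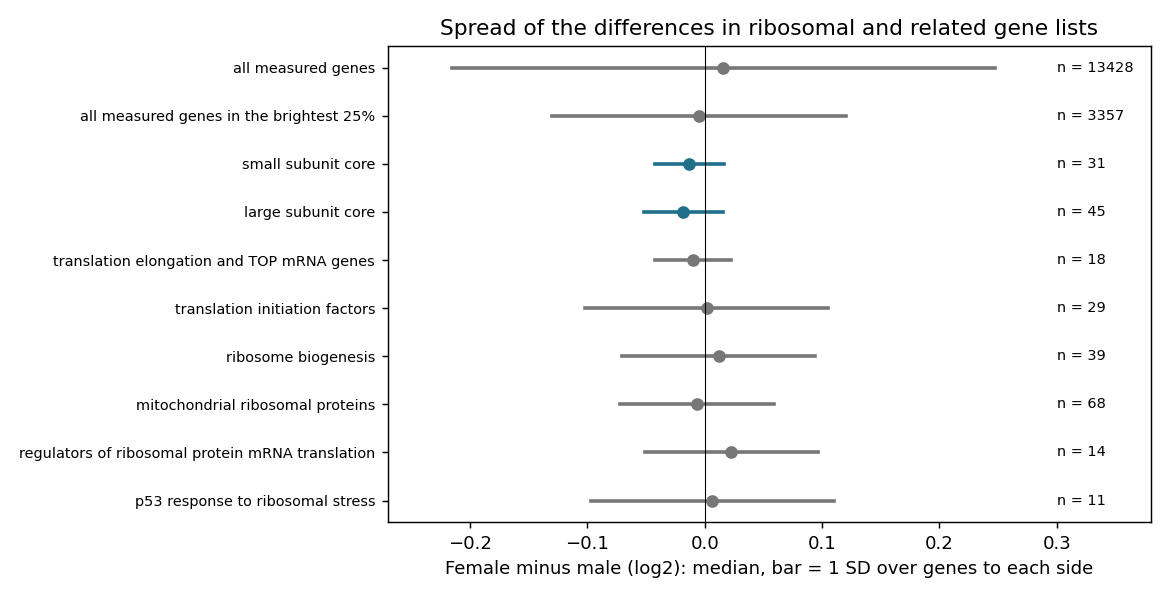
Median female minus male difference (log2) of gene lists, with a bar of 1 SD over genes to each side and the number of measured genes. The bars of the small subunit (SD 0.029), large subunit (0.034) and elongation and TOP genes (0.032) are narrower than those of all measured genes (0.23) and of their brightest 25% (0.13). The SDs of all measured genes and of their brightest 25% include extreme genes such as Ttr.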

How the data were processed

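Per the labels' protocols, cRNA from 100 ng of each pool was labelled with Cy3. The deposited scanner files hold spot intensities on a linear scale, background-corrected by Feature Extraction (version 9.1 in the submitters' processing notes, 11.5.1.1 per the file headers). Per the labels, each sex has 1 array and no spread between animals, and the number of arrays limits the precision. The authors' deposited value table (48346 spots) equals those intensities divided by 22.8 (male) and 23.4 (female), is not centred, and has column medians of 19.4 and 19.6.

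Values were log2 of the processed intensity minus the 75th percentile over all non-control spots. Spots flagged as outliers on either array were left out, and repeated spots were averaged. Probes had to be well above background on both arrays to count as measured, and their mean gave the gene. Differences are female minus male, and the folds 1.2 and 1.5 were fixed limits. Accessions were named through a RefSeq table of assembly GRCr8, while the array design uses rn4. Of 79 core symbols in that table, Rpl37, Rps9 and Rps19bp1 (not a ribosomal protein) had no named probe. The 76 core genes had 763 spots, of which 22 were flagged.

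Members and lists were chosen with earlier results of these data known. Named genes were the 8 highest and 8 lowest core genes, the X-linked, stalk and role-group members (up to 4 each), genes whose probes differ by over 1.2-fold, all paralogues, and in each other list the highest, lowest and 2 brightest genes. A few of these genes enter the counts but are not named or plotted here. Rps4y2, Rpl8, Rpl9, Rpl12, Rpl22, Rpl28, Rpl30, Rpl34, Rpl35a, Rpl38, Rps18, Rps25 and Rps27 were added for their probes, start windows or place after their values were seen. Settings with normexp (offset 50) or no correction started from the median signal of a spot. Python 3.11.15 with numpy 2.4.6 and pandas 2.3.3, and R 4.3.3 with limma 3.58.1, were used. The steps were tested on simulated data.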

Additional observations from a re-analysis of the deposited data

How the results depend on the processing

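No paired analysis was possible because a sex is represented by a single array, and for the same reason no replicate could be left out. Of 15 other settings, 14 were planned. Counting repeated spots once in the percentile was chosen after seeing the data. The core SD stayed between 0.029 and 0.041 over the 15. The core median ran from -0.049 (array median) to 0.050 (spike-in controls), and was 0.0029 after quantile normalization, -0.00032 after loess and -0.033 with repeated spots counted once. Spike-in centring put the paralogue median at 0.051 and the median of all genes at 0.082. The core median was below that of all genes in 13 of 15 settings, the exceptions being quantile normalization (0.0023 above) and loess (0.00026 above). The 13 are not separate comparisons, since a plain rescaling moves both medians by the same step. The gap was thus -0.033 alike for the array median, the spike-in controls and repeated spots counted once. With paralogues joined to the members, 1 gene was past 1.2-fold and 1 past 1.5-fold. The small minus large subunit median, 0.0049, was -0.0094 with normexp and -0.0092 without background correction. Of 739 values of named members, 66 moved by more than the median spot SD at their brightness, 46 of them under spike-in centring. Of the 14 core genes named at the ends, 13 kept their side of the core median in all 15 settings and Rpl23 did in 13. Several of the settings move every gene by a common step and so could not change a side. The genes were also picked as the extremes of these same values, so the count is no separate support for them. Why values moved between settings was not tested.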
